A study of Mus musculus with 9 samples.

Results

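The circadian clock genes described here are Per1, Per2, Per3, Cry1, Cry2, Clock, Nr1d1, Nr1d2, Dbp and Tef, chosen by symbol as core clock components or direct clock outputs. All 10 were found among the 20926 genes of the table, and all 10 passed the filter on low values. Blood RNA was sequenced in 3 groups of male DBA/1 mice that were 7 weeks old when the groups were formed, with 3 libraries per group, and whether a library is 1 mouse or a pool is not given in the sources used here. The Ctrl mice were the study's controls without arthritis or irradiation. Mice of the CIA group carried collagen-induced arthritis, a rheumatoid arthritis model made by injecting chick type II collagen in complete Freund's adjuvant and boosting with collagen in incomplete adjuvant. In the CIA+THz group the swollen ankle joints of such arthritic mice were exposed, under isoflurane anaesthesia, to a 0.1 THz wave for 30 min on each of 14 days. Whether Ctrl and CIA mice were also anaesthetised, and at what time of day the blood of any group was taken, is not given in the sources used here. The model is limited to arthritis induced in 1 sex and 1 inbred strain, and the irradiation was local whereas the RNA came from circulating cells.

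The mammalian clock is a transcriptional feedback loop that runs in most cells, leukocytes included. CLOCK and its partner BMAL1 (gene Arntl) switch on the Per and Cry genes through E-box sequences, and PER and CRY proteins then inhibit CLOCK and BMAL1. A further loop runs through the nuclear receptors REV-ERBα (Nr1d1) and REV-ERBβ (Nr1d2), which repress Arntl, while the PAR bZIP factors DBP and TEF carry the rhythm to output genes through D-box sequences. Dbp and Arntl transcripts peak at opposite phases, so their ratio in a tissue depends on the time of day.

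When all 3 groups were tested together, Nr1d2, Dbp and Tef fell below the limit of 0.05 before adjustment, and the rest of the 10 genes did not. This share, 3 of 10, is close to the background, as 21.3% of all 12366 genes tested fell below the same limit. Nr1d2 fell in CIA (mean 3.75 against 6.21 rescaled FPKM in Ctrl) and was at 5.97 in CIA+THz, Tef rose in CIA+THz against both other groups, and Dbp rose in CIA+THz against Ctrl, all by an unadjusted p under 0.05 and none after adjustment over all genes tested. Clock, Per1, Per2, Per3, Cry1, Cry2 and Nr1d1 did not pass the test in any comparison.

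The promoter windows of these genes are shown because E-boxes and D-boxes are the sequences through which the loop acts. RefSeq windows on GRCm38.p6, from 250 bases before to 50 bases after a transcription start, were at hand for 9 of the 10 genes as 13 windows. Each motif was searched on both strands, and none of the motifs overlaps another by its letters in the stretches printed. The E-box CACGTG was in 4 of the 13 windows (30.8%), against 7.15% of all 32851 windows. The D-box, searched as TTATGTAA or TTACGTAA, was in 1 of the 13 windows (7.69%), against 1.06% of all windows. The ROR element (TAGGTCA or TGGGTCA) and the CRE (TGACGTCA) were in none of the 13 windows and in 6.45% and 1.79% of all windows. A match is only a description of the letters in these windows. The stretches that held a match are given 5′ to 3′ on the strand of the gene, with the motif in capitals.
Cry1, chr10:85185089-85185134, minus strand: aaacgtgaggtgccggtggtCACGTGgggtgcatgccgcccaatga
Per1, chr11:69098763-69098808, plus strand: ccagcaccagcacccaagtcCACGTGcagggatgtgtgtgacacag
Per3, chr4:151044796-151044890, minus strand: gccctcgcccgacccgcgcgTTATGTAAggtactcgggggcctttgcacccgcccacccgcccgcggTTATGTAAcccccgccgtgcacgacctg
Tef, chr15:81802526-81802571, plus strand: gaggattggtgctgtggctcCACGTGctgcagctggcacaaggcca
Tef, chr15:81811256-81811301, plus strand: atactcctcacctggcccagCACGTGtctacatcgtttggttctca
The E-box began 60 bases before the start in Cry1. In Per1 it began 166 bases before a start that lies inside the gene (chr11:69095217-69109960 in GENCODE), not at its 5′ end. Tef had an E-box before each of 2 annotated starts, 127 and 138 bases upstream. The Per3 window held the D-box in 2 copies, 205 and 158 bases before the start. The windows of Dbp and Nr1d2 held none of the letters searched.

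Levels are given as rescaled FPKM, that is, fragments scaled by transcript length and library total (FPKM) as deposited, divided by 1 factor per library. The factors were between 0.847 and 1.24 and lowered CIA+THz by 0.28 against CIA and by 0.31 against Ctrl on the log2 scale, so changes are relative to the median gene. FPKM hold no counts, and from the steps between low values the CIA+THz libraries were 1.35 to 1.87 times as deep as Ctrl replicate 1, the others 1.00 to 1.28 times. The label of the samples is blood leukocyte, and the leukocyte markers Ptprc, Laptm5 and Coro1a summed to 830 to 1078 rescaled FPKM in every library, but erythroid markers were far higher (47472 to 103699), and Alas2 alone took 11.4% to 16.7% of the summed FPKM. In RNA of mixed blood cells, fewer cells of a type and less RNA per cell cannot be told apart.

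Since FPKM are divided by transcript length, the 10 genes could also be ranked against each other. The mean over 9 libraries was highest for Cry1 at 11.7 rescaled FPKM, a level above that of 81.8% of all genes in the table. It was followed by Nr1d2 at 5.31, Cry2 at 4.43, Per1 at 3.51, Per2 at 2.91, Tef at 2.62, Dbp at 2.13, Clock at 1.88, Nr1d1 at 1.19 and Per3 at 0.33. The lowest was thus Per3, listed at 0 in 4 of the 9 libraries. Within groups the SD on the log2 scale was largest for Per3 (1.69) and Nr1d1 (1.06), and between 0.27 and 0.44 for the other 8 genes, against a median of 0.33 over the 12366 genes tested. The plot of the 10 genes by library shows these levels.

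**Figure D1:**
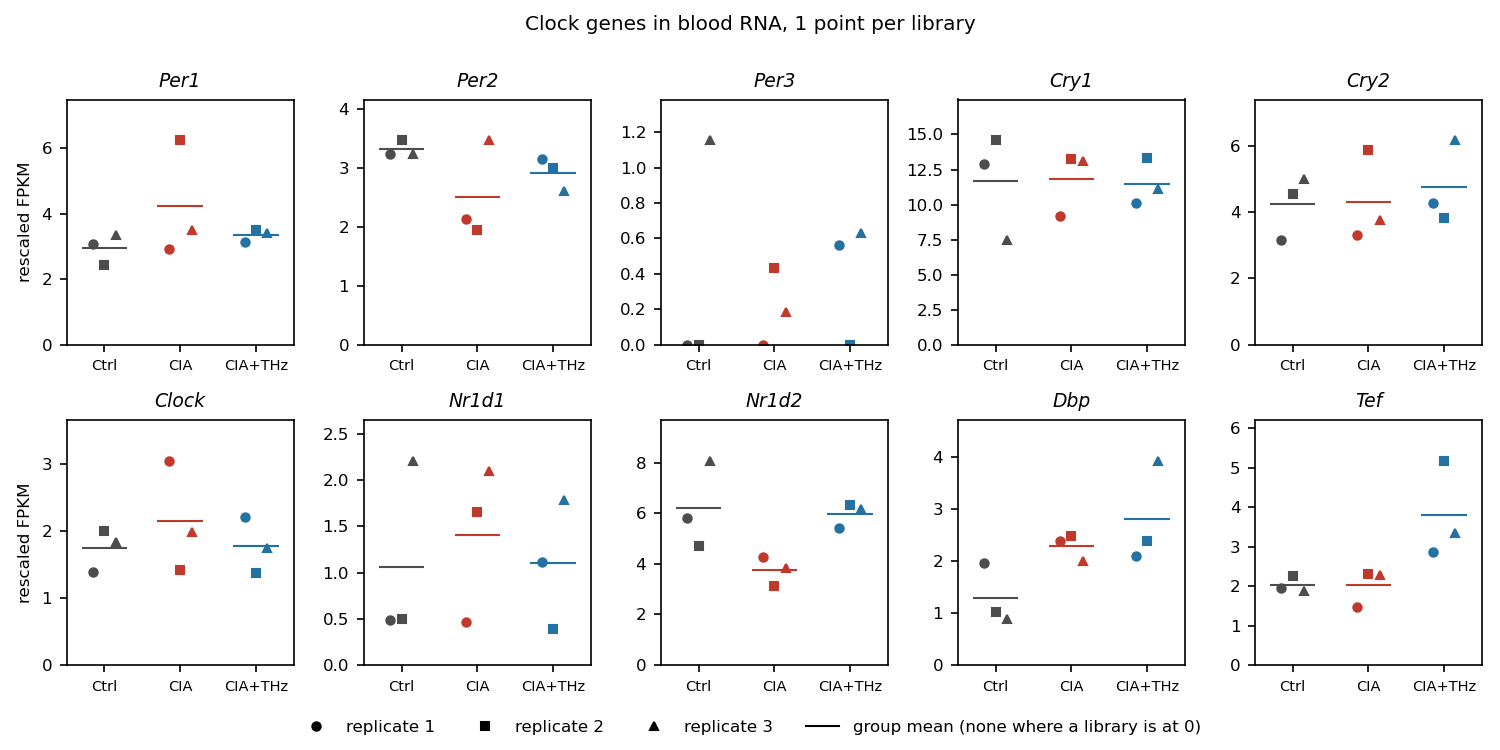
Rescaled FPKM (y axis, linear, from 0) of the 10 clock genes in the 3 libraries of each group (x axis). Points are libraries, shaped by replicate number, and lines are group means; Nr1d2 is lower in all 3 CIA libraries, Tef is higher in all 3 CIA+THz libraries, and Dbp is lower in all 3 Ctrl libraries.

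Across the 3 groups, limma's moderated F-test gave an unadjusted p under 0.05 for 3 of the 10 genes, Nr1d2, Tef and Dbp, where 21.3% of all 12366 genes tested did so. By Benjamini-Hochberg adjustment 0 of the 10 passed, where 2.53% of all genes did, and the adjusted p by limma was 0.16 for Nr1d2, 0.175 for Tef and 0.183 for Dbp. A one-way analysis of variance on linear values gave 1 of the 10. The share of 3 in 10 is close to that background.

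Between pairs of groups a gene passed when its unadjusted p was under 0.05 and its log2 fold change was beyond 0.67 in either direction. In CIA against Ctrl 1 of the 10 clock genes passed, as lower, where 9.04% of all genes passed and 4.25% did so as lower. In CIA+THz against CIA 1 of the 10 passed, as higher, where 4.54% of all genes passed and 2.94% did so as higher. In CIA+THz against Ctrl 2 of the 10 passed, both as higher, where 7.88% of all genes passed and 4.64% did so as higher. With an adjusted p under 0.05 by limma and the same fold limit, 0 of the 10 passed in each comparison, where 0.154%, 0% and 0.105% of all genes did, and with an unadjusted p under 0.05 alone 1, 2 and 2 of the 10 did, where 17.3%, 13.2% and 18.1% of all genes did. The 3 comparisons share groups, so their counts are not independent. The median log2 fold change of the 10 genes was 0.08, 0.19 and 0.16, against -0.01, 0.03 and 0.04 over all genes. Over all genes, those passing between CIA+THz and CIA split into 363 higher and 198 lower, which became 1126 and 66 with FPKM as deposited. Between CIA+THz and Ctrl the split was 574 higher and 401 lower, which became 1596 and 120.

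**Figure D2:**
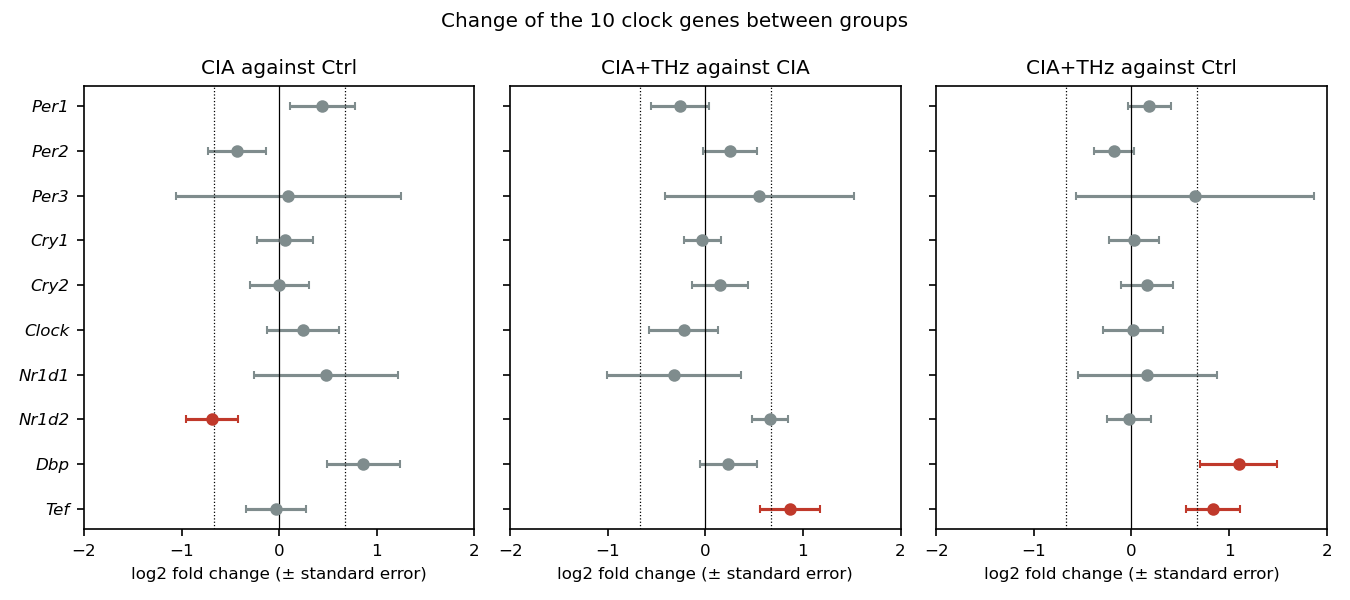
Log2 fold change (x axis, on log2 of rescaled FPKM plus 0.1) of the 10 clock genes in the 3 comparisons, with limma's standard error as bars and dotted lines at 0.67 in both directions. Red points passed the unadjusted test: Nr1d2 in CIA against Ctrl, Tef in CIA+THz against CIA, and Dbp and Tef in CIA+THz against Ctrl.

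Of the activators, Clock encodes the transcription factor that pairs with BMAL1 (chr5:76209868-76304792, minus strand, GENCODE on GRCm38). Clock was at 1.39, 1.99 and 1.83 rescaled FPKM in Ctrl, 3.04, 1.41 and 1.98 in CIA, and 2.20, 1.37 and 1.74 in CIA+THz. The 3 groups overlapped, and the highest library was CIA replicate 1. The log2 fold changes were between -0.22 and 0.24 with standard errors from 0.30 to 0.37. Its partner gene Arntl, which is not one of the 10, was lower still, at 1.38, 0.52 and 0.76 in Ctrl, 0.55, 0.43 and 0.73 in CIA, and 0.58, 1.04 and 1.00 in CIA+THz. The groups overlapped for Arntl too, with log2 fold changes against Ctrl of -0.48 ± 0.48 (SE) for CIA and 0.04 ± 0.45 for CIA+THz, and of 0.52 ± 0.37 for CIA+THz against CIA.

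The PER repressors differed among themselves. Per1 (chr11:69095217-69109960, plus strand), a Per gene that glucocorticoid and cAMP signals also induce, was at 3.08, 2.43 and 3.37 rescaled FPKM in Ctrl, 2.93, 6.25 and 3.51 in CIA, and 3.14, 3.50 and 3.41 in CIA+THz. CIA replicate 2 was the highest library, and the other 8 lay between 2.43 and 3.51. The log2 fold change of CIA against Ctrl was 0.44 ± 0.33 (SE), and without CIA replicate 2 it was 0.13.

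Per2 (chr1:91415982-91459324, minus strand), whose product holds the repressor complex together with CRY, was at 3.23, 3.46 and 3.24 rescaled FPKM in Ctrl, 2.12, 1.94 and 3.46 in CIA, and 3.16, 2.99 and 2.60 in CIA+THz. The low libraries were CIA replicates 1 and 2, while CIA replicate 3 was as high as Ctrl. The log2 fold change of CIA against Ctrl was -0.43 ± 0.29 (SE) and did not pass, and without CIA replicate 3 it was -0.68 and passed. All 3 CIA+THz libraries lay below all 3 Ctrl libraries, as did 12% of all genes, with a log2 fold change of -0.18 ± 0.20 that became 0.12 with FPKM as deposited.

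Per3 (chr4:151003652-151044665, minus strand), the Per gene that mice can lose with little effect on rhythm, was listed at 0, 0 and 1.15 rescaled FPKM in Ctrl, 0, 0.43 and 0.19 in CIA, and 0.56, 0 and 0.63 in CIA+THz. Zeros occurred in every group, and the standard errors of its log2 fold changes were 0.97 to 1.22. No difference in Per3 was detectable against this spread. Its locus overlaps Camta1 on the same strand (mean 0.32 rescaled FPKM), so the assignment of its reads is uncertain.

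The CRY repressors did not differ between groups beyond their spread. Cry1 (chr10:85131700-85185064, minus strand), the stronger repressor of CLOCK and BMAL1, was at 12.9, 14.6 and 7.50 rescaled FPKM in Ctrl, 9.20, 13.3 and 13.1 in CIA, and 10.1, 13.3 and 11.1 in CIA+THz. Cry2 (chr2:92403646-92434043, minus strand), its paralog, was at 3.17, 4.55 and 4.99 in Ctrl, 3.29, 5.87 and 3.75 in CIA, and 4.26, 3.82 and 6.16 in CIA+THz. The groups overlapped for both genes. Their log2 fold changes were between -0.03 and 0.16 in the 3 comparisons, with standard errors of 0.19 to 0.30.

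The REV-ERB receptors, nuclear receptors that bind haem, had unlike values. Nr1d2 (chr14:18204054-18239127, minus strand) was at 5.83, 4.72 and 8.09 rescaled FPKM in Ctrl, 4.28, 3.14 and 3.82 in CIA, and 5.41, 6.32 and 6.17 in CIA+THz. Every CIA library was below every Ctrl library, as for 11.8% of all genes, and every CIA+THz library was above every CIA library, as for 9.38% of all genes. Ctrl had a mean of 6.21 ± 1.72 (SD, n = 3), CIA of 3.75 ± 0.57 and CIA+THz of 5.97 ± 0.49.

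Nr1d2 fell in CIA against Ctrl by 0.69 on the log2 scale (SE 0.26, unadjusted p = 0.0335, adjusted p = 0.247 by limma). Its log2 fold change in the irradiated mice against CIA was 0.665 (SE 0.18, unadjusted p = 0.00892, adjusted p = 0.254 by limma), just short of the fold limit of 0.67. In CIA+THz against Ctrl it was -0.03 ± 0.22 (SE), or 0.28 with FPKM as deposited. The fall in CIA did not pass with FPKM as deposited (-0.66) or without Ctrl replicate 1 (-0.72), Ctrl replicate 3 (-0.49), CIA replicate 2 (-0.57) or CIA replicate 3 (-0.71). The difference between CIA+THz and CIA passed both limits with FPKM as deposited (0.94), with a pseudocount of 0.01 (0.68), and without CIA replicate 1 (0.76), CIA replicate 3 (0.68) or CIA+THz replicate 1 (0.73).

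Markers of T cells and NK cells were, like Nr1d2, lowest in CIA. The 6 T cell markers (Cd3d, Cd3e, Cd3g, Cd5, Lat and Tcf7) summed to 256 to 276 rescaled FPKM in Ctrl, 202 to 223 in CIA and 255 to 356 in CIA+THz, with no marker at 0. The means of all 6 were below Ctrl in CIA, with 0 of them passing the test, and above CIA in CIA+THz, with 1 passing and a median log2 fold change of 0.33. The 5 NK cell markers (Ncr1, Klrb1c, Klrd1, Gzma and Eomes) summed to 97.4 to 129 in Ctrl, 32.4 to 80.9 in CIA and 61.8 to 98.6 in CIA+THz, so that CIA+THz overlapped both other groups, again with no marker at 0. In CIA against Ctrl the means of all 5 NK markers were lower, with 3 passing and a median log2 fold change of -0.97, against -0.30 for the T cell markers. Between CIA and CIA+THz the means of all 5 were above CIA in the latter, with 0 passing and a median of 0.48. The sum of the 6 monocyte markers was highest in CIA, with 2804 to 3113 in Ctrl, 4898 to 5460 in CIA and 3227 to 3482 in CIA+THz. Lyz2 made up most of it, with means of 2717, 4715 and 2963. In CIA+THz against CIA 5 of the 6 were lower and 1 higher, with 0 passing. The part of these cell markers in the difference of Nr1d2 was not tested.

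Nr1d1 (chr11:98767932-98775333, minus strand), the receptor with the wider daily swing in most tissues, was at 0.48, 0.50 and 2.21 rescaled FPKM in Ctrl, 0.47, 1.65 and 2.10 in CIA, and 1.11, 0.39 and 1.79 in CIA+THz. Each group held a library at or under 0.50 and another of at least 1.79, and the highest of the 9 was 5.62 times the lowest. The log2 fold changes were between -0.32 and 0.48 with standard errors of 0.69 to 0.74. Nr1d1 overlaps the thyroid hormone receptor gene Thra on the opposite strand (mean 1.30 rescaled FPKM), and since the strand of the counting is not given, their reads cannot be told apart here.

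Of the outputs, Dbp (chr7:45705088-45710203, plus strand), which encodes the D-box activator with the widest daily rhythm among them, was at 1.96, 1.02 and 0.88 rescaled FPKM in Ctrl, 2.39, 2.49 and 2.00 in CIA, and 2.10, 2.38 and 3.94 in CIA+THz. Every CIA library was above every Ctrl library, as for 11.8% of all genes, and so was every CIA+THz library, as for 11.9% of all genes, although Ctrl replicate 1 was nearly as high as CIA replicate 3. Ctrl had a mean of 1.28 ± 0.59 (SD, n = 3), CIA of 2.29 ± 0.26 and CIA+THz of 2.81 ± 0.99.

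Dbp rose in CIA+THz against Ctrl, with a log2 fold change of 1.10 (SE 0.40, unadjusted p = 0.0258, adjusted p = 0.214 by limma). Its log2 fold change was 0.86 (SE 0.38, adjusted p = 0.30 by limma) between CIA and Ctrl, which did not pass, and 0.24 ± 0.29 (SE) between CIA+THz and CIA. The rise in CIA+THz did not pass without CIA+THz replicate 2 (1.19), CIA+THz replicate 3 (0.84), Ctrl replicate 2 (0.98) or Ctrl replicate 3 (0.89). The difference between CIA and Ctrl passed without Ctrl replicate 1 (1.19), with all 3 groups in 1 fit, with no variance trend and with FPKM as deposited (0.89). Dbp overlaps Sphk2 on the opposite strand, which at a mean of 25.1 rescaled FPKM is far above Dbp, so reads of Sphk2 could count for Dbp if strand was not used. The sum of the monocyte markers, mostly Lyz2, was also lowest in the 3 Ctrl libraries (ranges above). Against Ctrl all 6 markers were higher in CIA, with 4 passing. In CIA+THz 5 were higher than in Ctrl, with 2 passing, and 1 was lower. The part of these markers in the values of Dbp was not tested.

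Tef (chr15:81802421-81826863, plus strand), the related factor with a shallower rhythm, was at 1.96, 2.25 and 1.87 rescaled FPKM in Ctrl, 1.47, 2.31 and 2.27 in CIA, and 2.87, 5.18 and 3.35 in CIA+THz. Every CIA+THz library was above every CIA library (9.38% of all genes) and every Ctrl library (11.9%), and Ctrl and CIA overlapped. Ctrl had a mean of 2.03 ± 0.20 (SD, n = 3), CIA of 2.02 ± 0.47 and CIA+THz of 3.80 ± 1.22, with CIA+THz replicate 2 the highest.

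Tef rose in CIA+THz against CIA with a log2 fold change of 0.86 (SE 0.31, unadjusted p = 0.0271, adjusted p = 0.319 by limma), and against Ctrl with 0.84 (SE 0.28, unadjusted p = 0.0192, adjusted p = 0.194 by limma). In CIA against Ctrl the log2 fold change was -0.03 ± 0.31 (SE). The rise against CIA did not pass without CIA replicate 1 (0.66), CIA+THz replicate 2 (0.62) or CIA+THz replicate 3 (0.93), and the rise against Ctrl was lost by leaving out CIA+THz replicate 2 (0.60) or Ctrl replicate 3 (0.78). With a pseudocount of 1 both were short of the fold limit (0.65 and 0.64).

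Other blood cell marker sums also differed in CIA+THz, those of B cells as higher than in Ctrl and those of erythroid cells and neutrophils as lower than in both other groups. The 6 B cell markers summed to 540 to 699 rescaled FPKM in CIA+THz, above the 403 to 493 of Ctrl and overlapping the 467 to 588 of CIA. The 5 erythroid markers at hand summed to 47472 to 65467 in CIA+THz, below the 69130 to 103699 of Ctrl and the 87187 to 97883 of CIA, and the 6 neutrophil markers summed to 10446 to 11885, below the 12240 to 20614 of Ctrl and the 14152 to 18293 of CIA. Their part in the rise of Tef was not tested, nor was that of the greater depth of the CIA+THz libraries.

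Within each library, the log2 level of Arntl was subtracted from that of Dbp. A factor per library has no effect on this ratio beyond the pseudocount. Arntl was low (0.43 to 1.38 rescaled FPKM), and reads of Sphk2 could count for Dbp. Pearson's r of Arntl and Dbp over the 9 libraries was 0.21, and whether the ratio followed phase was not tested. The ratio was 0.48, 0.85 and 0.18 in the Ctrl libraries, 1.93, 2.28 and 1.33 in CIA, and 1.69, 1.12 and 1.87 in CIA+THz. Every arthritic library, irradiated or not, was thus above every Ctrl library, whereas CIA and CIA+THz overlapped. CIA exceeded Ctrl by a mean of 1.35 and CIA+THz exceeded it by 1.06, each with p = 0.1 in a two-sided exact permutation test, the smallest p that 3 against 3 libraries allow. Between CIA+THz and CIA it was -0.29 (exact permutation p = 0.4). Dbp alone also had every arthritic library above every Ctrl library. Arntl had log2 fold changes against Ctrl of -0.48 ± 0.48 (SE) in CIA and 0.04 ± 0.45 in CIA+THz. The time of day at which each group was bled is not given. A difference in sampling time, an effect of arthritis on these genes, a change of cell mix and reads of Sphk2 therefore cannot be told apart.

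**Figure D3:**
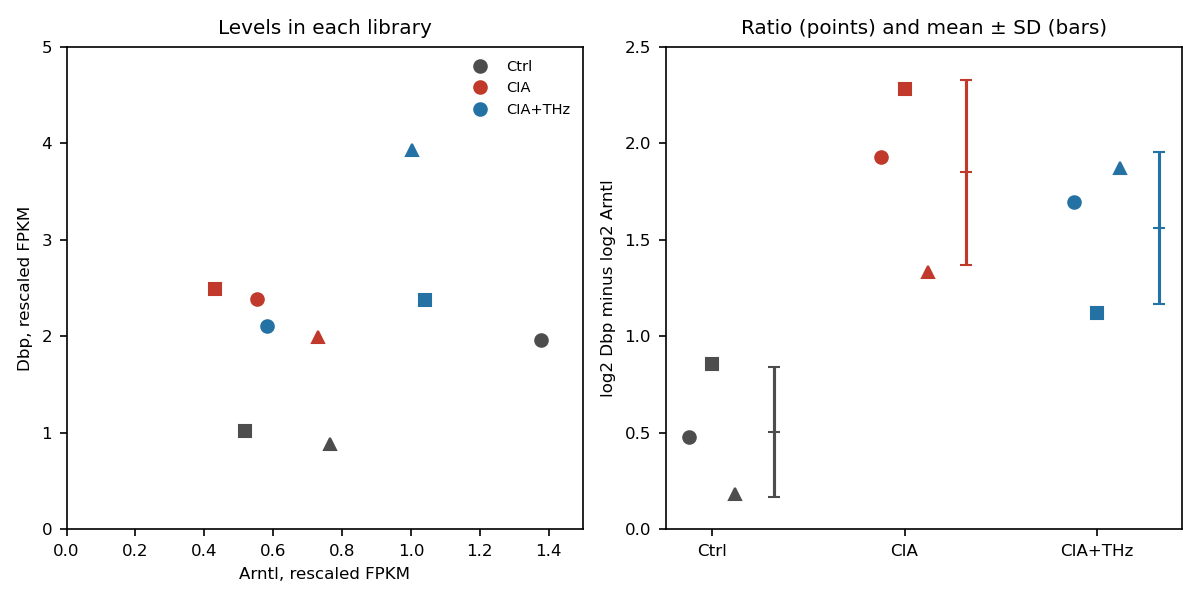
Left, Dbp (y axis) against Arntl (x axis) in rescaled FPKM for the 9 libraries, with circles, squares and triangles for replicates 1, 2 and 3. Right, log2 Dbp minus log2 Arntl of each library with the mean and SD of its group as bars; the 3 Ctrl libraries lie between 0.18 and 0.85, and the 6 others between 1.12 and 2.28.

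Pairs of genes that a clock at different phases would move together or apart were compared over the 9 libraries. Pearson's r was 0.21 for Arntl and Dbp (Spearman's rho -0.13), -0.19 for Arntl and Nr1d1 (rho -0.12), -0.18 for Arntl and Per3 (rho -0.02), 0.02 for Dbp and Nr1d1 (rho -0.18) and -0.004 for Dbp and Per3 (rho 0.07), with exact permutation p between 0.594 and 0.99 for r. For Per1 and Per2, r was -0.62 (exact permutation p = 0.079) and rho -0.22 (exact permutation p = 0.581), and r was 0.53 without Ctrl replicate 2 and CIA replicate 2, so its sign rests on those libraries. With Benjamini-Hochberg adjustment over 6 pairs and 2 measures, every exact permutation p was at least 0.948. Within groups, on values centred on the group mean, r was 0.60 for Arntl and Dbp and -0.43 for Per1 and Per2, with exact permutation p of 0.296 and 0.667.

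Outside the 10 genes, 23 further genes of the clock loop and its modifiers were examined. Npas2, Rorb and Fbxl21 were listed at 0 in all libraries and Arntl2 was under the filter, which left 19 tested. Of these, 3 passed in CIA against Ctrl (9.04% of all genes), 1 in CIA+THz against CIA (4.54%) and 2 in CIA+THz against Ctrl (7.88%), and with an adjusted p under 0.05 by limma 0 did, while 3, 2 and 4 had an unadjusted p under 0.05 (17.3%, 13.2% and 18.1% of all genes). Their median log2 fold changes were 0.11, 0.09 and 0.01, which became 0.14, 0.37 and 0.31 with FPKM as deposited.

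Nfil3, which encodes the D-box repressor that opposes DBP and TEF, rose in CIA. It was at 9.02, 12.1 and 7.19 rescaled FPKM in Ctrl, 12.6, 16.8 and 18.9 in CIA, and 14.3, 11.5 and 8.33 in CIA+THz. The log2 fold change of CIA against Ctrl was 0.78 (SE 0.24, adjusted p = 0.19 by limma), and it did not pass without CIA replicate 2 (0.73), CIA replicate 3 (0.65) or Ctrl replicate 3 (0.60). Hlf, the third PAR bZIP gene beside Dbp and Tef, was higher in all 3 CIA libraries than in any other, at 0.81, 1.06 and 0.50 against 0, 0.47 and 0.18 in Ctrl and 0.25, 0 and 0.14 in CIA+THz. For 11.8% of all genes every CIA library was above every Ctrl library. Hlf passed in CIA against Ctrl (adjusted p = 0.271 by limma) and, as lower, in CIA+THz against CIA (adjusted p = 0.259 by limma). Its fold change depends on the pseudocount because libraries were listed at 0, and in CIA against Ctrl it did not pass without CIA replicate 1, 2 or 3 or Ctrl replicate 1 or 3. The 3 PAR bZIP genes thus had unlike orders of the groups, Dbp lowest in Ctrl, Tef highest in CIA+THz and Hlf highest in CIA.

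Wee1, a clock-controlled kinase gene of the cell cycle, was at 2.38, 1.30 and 0.95 rescaled FPKM in Ctrl, 0, 0.39 and 0.91 in CIA, and 1.02, 1.44 and 1.03 in CIA+THz. It passed as lower in CIA than in Ctrl (adjusted p = 0.281 by limma), but among the 6 fits that left out 1 library it passed only without CIA replicate 3. Timeless, named for its fly relative of the clock and active at replication forks, rose in CIA+THz against Ctrl with a log2 fold change of 1.35 (SE 0.47, adjusted p = 0.205 by limma) from 0.61, 2.18 and 1.77 to 4.55, 2.84 and 3.56. Leaving out CIA+THz replicate 1 (1.18) or 3 (1.35) ended the call.

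Sirt1, a deacetylase gene whose product binds CLOCK, fell in CIA+THz against Ctrl. It was at 13.4, 18.6 and 14.7 rescaled FPKM in Ctrl, 13.8, 11.2 and 12.0 in CIA, and 8.56, 9.54 and 8.95 in CIA+THz. Its log2 fold change was -0.77 (SE 0.16, adjusted p = 0.0992 by limma), or -0.47 with FPKM as deposited and -0.64 without Ctrl replicate 2, both short of the fold limit.

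**Figure D4:**
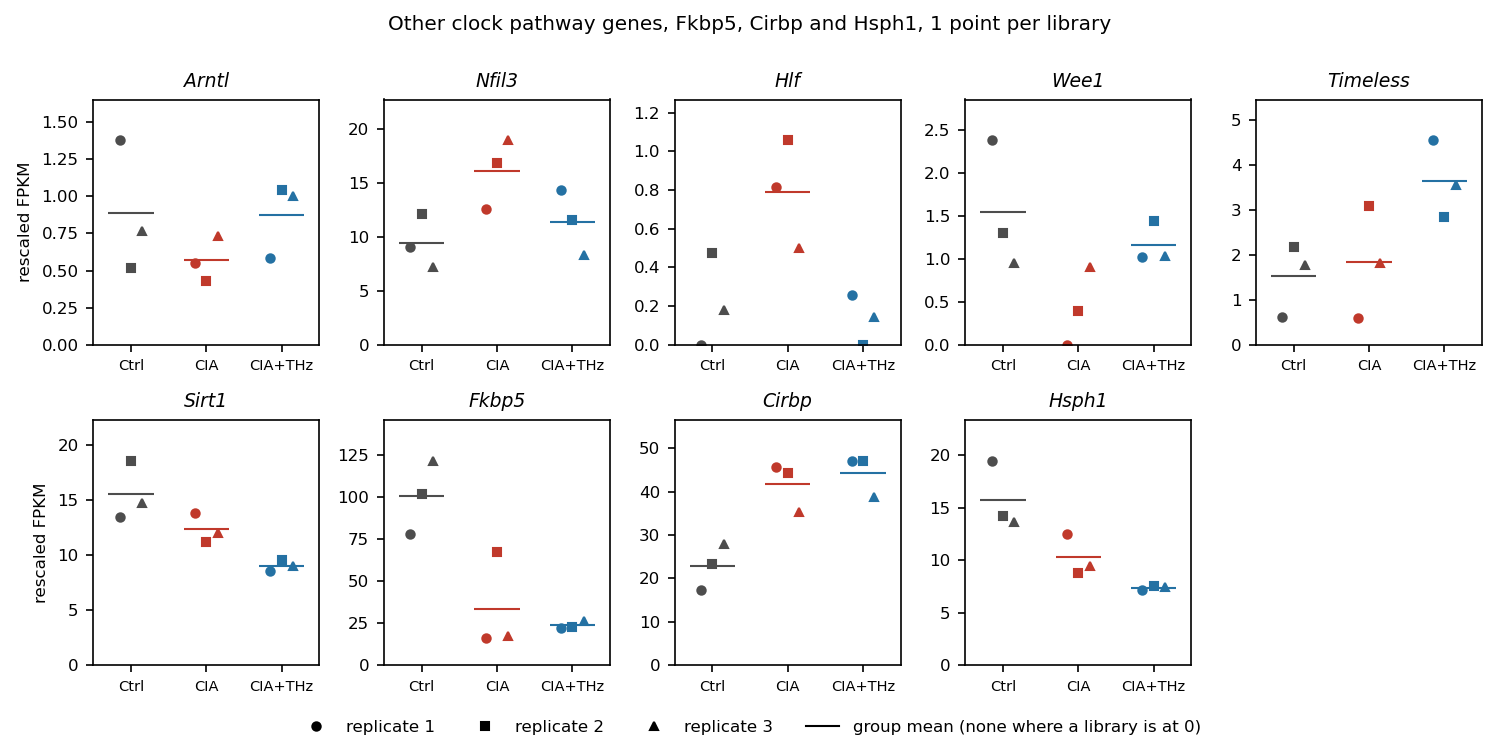
Rescaled FPKM (y axis, linear, from 0) of Arntl, 5 other clock pathway genes, Fkbp5, Cirbp and Hsph1 in the 3 libraries of each group (x axis). Points are libraries, shaped by replicate number, and lines are group means, left out where a library is at 0. Fkbp5 is lower and Cirbp higher in all 6 arthritic libraries than in the 3 Ctrl libraries. Of all genes, 11.8% were lower than Ctrl in every CIA library and 12% in every CIA+THz library, and 11.8% and 11.9% were higher.

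Systemic cues that set peripheral clocks, glucocorticoid and body temperature, were followed by genes known to respond to them. Of 8 glucocorticoid-responsive genes (Tsc22d3, Fkbp5, Sgk1, Ddit4, Klf9, Zbtb16, Dusp1 and Cebpd), Fkbp5 alone passed between groups. That was 1 of 8 against Ctrl in CIA (9.04% of all genes) and in CIA+THz (7.88%), with 0 between CIA+THz and CIA (4.54%). Fkbp5, which encodes a co-chaperone that restrains the glucocorticoid receptor, was at 77.9, 102 and 121 rescaled FPKM in Ctrl, 15.8, 67.0 and 17.4 in CIA, and 22.1, 22.4 and 26.0 in CIA+THz. It fell against Ctrl both in CIA, with a log2 fold change of -1.90 (SE 0.53, adjusted p = 0.156 by limma), and in CIA+THz, with -2.07 (SE 0.17, adjusted p = 0.0158 by limma). The latter adjusted p by limma was 0.165, 0.137 and 0.121 without CIA+THz replicate 1, 2 or 3, 0.108 without Ctrl replicate 2, 0.0539 with no filter and 0.0591 with all 3 groups in 1 fit. CIA replicate 2 stood apart from its group. In CIA against Ctrl 3 of the 8 genes had a log2 fold change above 0 and 5 below, with a median of -0.02. All 8 genes had a log2 fold change below 0 in CIA+THz against Ctrl, with a median of -0.28 against 0.04 over all genes, where 46.1% of all genes were below 0. Of the 8, 3 had an unadjusted p under 0.05 (18.1% of all genes). With FPKM as deposited 4 of the 8 were below 0 (22.5% of all genes) and 1 had such a p (23.9% of all genes). Cebpd, a transcription factor gene that inflammation also induces, was at 165, 152 and 147 in CIA+THz against 233, 232 and 224 in CIA, a log2 fold change of -0.57 ± 0.08 (SE) under the fold limit.

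Of 5 temperature-driven genes (Cirbp, Rbm3, Hspa8, Hsp90aa1 and Hsph1), Cirbp passed in both comparisons with Ctrl and Hsph1 in 1. That was 1 of 5 in CIA (9.04% of all genes) and 2 of 5 in CIA+THz (7.88%), with 0 between CIA+THz and CIA (4.54%). The 5 did not move 1 way, with 3 higher and 2 lower in CIA against Ctrl, and 2 higher and 3 lower in CIA+THz against Ctrl. Cirbp, a cold-induced RNA-binding protein gene, was at 17.3, 23.3 and 27.9 rescaled FPKM in Ctrl, 45.7, 44.4 and 35.4 in CIA, and 47.1, 47.1 and 38.6 in CIA+THz. Against Ctrl it rose in CIA with a log2 fold change of 0.89 (SE 0.20, adjusted p = 0.103 by limma) and in CIA+THz with 0.97 (SE 0.19, adjusted p = 0.0945 by limma). Rbm3, the related cold-induced gene, was at 7.63, 8.14 and 7.77 in Ctrl, 11.8, 12.5 and 12.7 in CIA, and 11.3, 11.9 and 14.1 in CIA+THz. Every CIA library was above every Ctrl library, as for 11.8% of all genes, and so was every CIA+THz library, as for 11.9%. The log2 fold changes of Rbm3 against Ctrl were 0.65 in both comparisons, under the fold limit. Hsph1, a heat shock chaperone gene, was at 19.5, 14.2 and 13.6 in Ctrl, between 8.82 and 12.5 in CIA, and at 7.18, 7.48 and 7.44 in CIA+THz. It fell in CIA+THz against Ctrl by 1.07 on the log2 scale (SE 0.17, adjusted p = 0.066 by limma). Its log2 fold changes were -0.61 ± 0.21 (SE) in CIA against Ctrl and -0.46 ± 0.16 in CIA+THz against CIA, both short of the fold limit. Across the 3 groups the adjusted p by limma was 0.0452 for Fkbp5, 0.0448 for Cebpd, 0.0281 for Cirbp, 0.0466 for Rbm3 and 0.0333 for Hsph1. None of these 5 calls held with no variance trend (0.106 to 0.161), with the replicate number as a block (0.0516 to 0.0991) or in the analysis of variance on linear values (0.0946 to 0.172), and with FPKM as deposited it was 0.0515 for Fkbp5, 0.256 for Cebpd and 0.0768 for Hsph1. Leaving out 1 library at a time moved these adjusted p to between 0.00128 and 0.133 for Fkbp5, 0.0456 and 0.145 for Cebpd, 0.0317 and 0.0958 for Cirbp, 0.0673 and 0.133 for Rbm3, and 0.0423 and 0.102 for Hsph1. Leaving out a Ctrl library, replicate 1, gave 0.133 for Fkbp5 and Rbm3, 0.0958 for Cirbp and 0.102 for Hsph1, and leaving out CIA+THz replicate 2 gave 0.145 for Cebpd.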

How the data were processed

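The authors extracted total blood RNA and sequenced it in paired-end mode (2 × 150 bp). They deposited 1 FPKM column per library for 20926 gene symbols. The submitters' processing notes name bcl2fastq 2.0, HISAT2, StringTie, DESeq2 and the build mm10, and give no role to them in the sources used here, nor an annotation or the strand of counting. Groups were taken from the sample labels. For rescaling, every library's FPKM were divided by the median of its ratios to the geometric mean library over the 10312 genes detected in every library. Genes whose mean rescaled FPKM reached 0.1 were tested on log2(rescaled FPKM + 0.1) with limma 3.58.1 in R 4.3.3 (trend on the mean, each pair of groups fitted on its own libraries), which was tested on simulated data. Fold changes on this scale understate those of low genes, for which counting error limits the precision. Exact tests went through all permutations in Python with numpy 2.4.6. For the correlations, scipy 1.17.1 gave the ranks and the Benjamini-Hochberg adjustment. The clock genes and the other gene lists were chosen with earlier results of these data known. All 10 clock genes are named, and of the other lists Arntl, any gene passing between groups or with an adjusted p under 0.05 across them. Replicates measure the spread between these libraries only. Positions are from GENCODE on GRCm38 by symbol. Not every gene of the clock pathway is reported here, and the counts leave such genes out. Alternatives were other scaling, pseudocounts (1 and 0.01), filters, variance models and samples in the fit, a replicate block, leaving out each library and, added after seeing the data, a plain ratio of group means (log2, no pseudocount).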

Additional observations from a re-analysis of the deposited data

How the results depend on the processing

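The counts of clock genes passing were small, so single alternatives moved them. With Benjamini-Hochberg adjustment all fell to 0, as did those of the other clock pathway genes. Across the 3 groups the analysis of variance on linear values gave 1. In CIA against Ctrl the count was 2 with all 3 groups in 1 fit and with no variance trend, and 0 with a pseudocount of 1. In CIA+THz against CIA it was 2 with FPKM as deposited and with a pseudocount of 0.01, and 0 with a pseudocount of 1. In CIA+THz against Ctrl it was 1 with a pseudocount of 1. Leaving out each library gave 1 to 3 across the groups, 0 to 1 in CIA against Ctrl, 0 to 2 in CIA+THz against CIA and 0 to 2 in CIA+THz against Ctrl. For the other clock pathway genes in CIA against Ctrl the count was 1 with a minimum mean of 1, with no filter and with a pseudocount of 0.01, and 0 to 2 with a library left out. In CIA+THz against CIA it was 3 with FPKM as deposited, 2 with all 3 groups in 1 fit, 0 with a pseudocount of 1, and 1 to 2 with a library left out, and in CIA+THz against Ctrl it was 1 to 2. The cause of these moves was not tested.

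Replicate numbers did not pair the libraries, since the correlations of same-numbered deviations were between -0.10 and 0.04. With the replicate block the count in CIA+THz against Ctrl was 1, Dbp being lost, and the counts of clock genes in the other comparisons did not change.

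The Dbp to Arntl log2 ratio in CIA against Ctrl was 0.80 with a pseudocount of 1. Leaving out libraries gave 1.13 to 1.60 in CIA against Ctrl, -0.55 to -0.07 in CIA+THz against CIA and 0.90 to 1.28 in CIA+THz against Ctrl. With FPKM as deposited r was 0.01 for Arntl and Per3 and 0.14 for Dbp and Per3.

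Signs turned only for values that had not passed. With FPKM as deposited the log2 fold change in CIA+THz against CIA was 0.01 for Per1, 0.24 for Cry1 and 0.04 for Clock, in CIA+THz against Ctrl 0.12 for Per2 and 0.28 for Nr1d2, and in CIA against Ctrl 0.00 for Tef. Per3 in CIA against Ctrl was -0.11 with a pseudocount of 1 and -0.90 by the ratio of means, by which Cry1 and Arntl in CIA+THz against Ctrl were each -0.02. With a library left out, CIA against Ctrl ranged from -0.51 to 1.31 for Per3, -0.23 to 0.25 for Cry1, -0.24 to 0.17 for Cry2, -0.04 to 0.49 for Clock and -0.14 to 0.17 for Tef. CIA+THz against CIA ranged from -0.47 to 0.06 for Per1, -0.10 to 1.49 for Per3, -0.20 to 0.06 for Cry1, -0.05 to 0.40 for Cry2, -0.48 to 0.05 for Clock, -0.91 to 0.22 for Nr1d1 and -0.03 to 0.41 for Dbp. CIA+THz against Ctrl ranged from -0.26 to 0.21 for Cry1, -0.04 to 0.29 for Cry2, -0.15 to 0.18 for Clock, -0.27 to 0.82 for Nr1d1, -0.20 to 0.18 for Nr1d2 and -0.25 to 0.38 for Arntl. Without a depth in reads, the counting error of low genes such as Per3, Hlf and Wee1 could not be given.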
